A study of Mus musculus with 12 samples.

Results

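The BCL2 family of apoptosis regulators was followed through 12 RNA-seq libraries of mouse haematopoietic stem cells (HSCs). The 10 genes described were chosen by symbol from the 24946 usable gene entries of the deposited table: the anti-apoptotic *Bcl2*, *Bcl2l1* and *Mcl1*, the effectors *Bax* and *Bak1*, and the BH3-only genes *Bid*, *Bad*, *Bbc3*, *Pmaip1* and *Bcl2l11*. All 10 were in the table, and 9 passed the filter on low values that 10816 genes passed (100 units or more in 3 or more libraries). *Pmaip1* did not pass it.

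Proteins of this family decide whether the outer membrane of the mitochondrion is opened, the step that releases cytochrome c and starts the caspases. The anti-apoptotic proteins hold the effectors and the BH3-only proteins in check, the BH3-only proteins carry stress signals to them, and freed BAX and BAK form the pores. HSCs are known to depend on MCL1, and enforced BCL2 enlarges the HSC pool in mice.

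All mice were on the C57BL/6 background and were either wild type (WT) or *Bst2* knockout (KO), *Bst2* encoding the interferon-induced membrane protein tetherin. Of each genotype, some mice stayed naive and others received 100 µg of recombinant mouse interferon-γ (IFN-γ) and were sampled at 24 h, which gave the groups WT naive, WT IFN-γ, KO naive and KO IFN-γ with 3 libraries each. HSCs were sorted from bone marrow of the leg, pelvis and hips by the absence of lineage markers, CD48 and CD34 and the presence of c-Kit and CD150, and the libraries were made from total RNA with a stranded kit. Which mouse a library came from and how the knockout was made are not stated in the labels. A p-value here sets a difference against the spread that the fitted model leaves between these libraries, which may not be that between mice.

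The values are the authors' normalized counts, called units below. They carry no correction for gene length, so levels are compared between libraries for 1 gene at a time. Each library title holds a code of the series FL-06 (6 libraries), R-09 (4 libraries) or R-07 (2 libraries, both KO), and what the codes stand for is not stated. WT naive 3, WT IFN-γ 3, KO naive 1 and KO IFN-γ 2 are the R-09 libraries, and KO naive 2 and KO IFN-γ 3 are the R-07 libraries. Within each genotype every code series holds as many naive as treated libraries, so that an IFN-γ effect can be read inside a series.

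The 12 totals lay between 13.83 and 17.68 M units. *Bst2* ranged from 152.1 to 1514 units in WT and from 0 to 24.78 units in KO libraries, with no overlap between the genotypes, and *Cd74*, a known IFN-γ target, was higher in the treated libraries of every genotype and code series. WT naive 2 stood apart by its coarse low values: the median of its 100 lowest values above 0 was 29.57 units, against 0.3345 to 1.73 units elsewhere, and 10567 genes were above 0 against 12395 to 14640. The R-09 libraries stood apart by content. A list of 12 neutrophil markers summed to 96200 to 208900 units in R-09 and to 8684 to 15130 units in the other 8 libraries, and *Cd48* and *Cd34*, which the sort selects against, summed to 3506 to 4096 units against 512.7 to 939.7 units. Higher sums in R-09 were not particular to neutrophil markers. Monocyte and macrophage markers summed to 15170 to 29500 units in R-09 and to 948.8 to 2261 units elsewhere. Megakaryocyte markers summed to 26240 to 28160 units against 5193 to 8089 units. The B and plasma cell sums and the T and NK cell sums did not overlap either. The erythroid sums and the endothelium and stroma sums overlapped. The ribosomal RNA precursor *Rn45s* lay between 47.76 and 95.67 units in R-09 and between 42580 and 428600 units elsewhere. HSC markers summed to 32770 to 41750 units in R-09 and to 28240 to 33560 units elsewhere, so they were present in every library.

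The promoters of the effectors *Bax* and *Bak1* are shown because these genes, whose proteins have overlapping roles, differed in opposite directions between the code series. They are RefSeq sequences of mouse build GRCm38.p6, from 250 bases before to 50 bases after the annotated transcription start, read 5′ to 3′ on the minus strand of both genes. *Bax* lies at chr7:45466849-45467148 and *Bak1* at chr17:27028578-27028877. The build used by the authors is not given in the sources used here. Capitals mark the only match to the 10-base p53 half-site, which begins at base 50 of the *Bax* window.
Bax: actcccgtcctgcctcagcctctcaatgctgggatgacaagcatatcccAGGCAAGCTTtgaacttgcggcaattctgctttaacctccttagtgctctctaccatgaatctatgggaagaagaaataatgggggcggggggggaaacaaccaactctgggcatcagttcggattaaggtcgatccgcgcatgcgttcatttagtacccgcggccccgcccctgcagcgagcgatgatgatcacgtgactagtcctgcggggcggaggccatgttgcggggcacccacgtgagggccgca
Bak1: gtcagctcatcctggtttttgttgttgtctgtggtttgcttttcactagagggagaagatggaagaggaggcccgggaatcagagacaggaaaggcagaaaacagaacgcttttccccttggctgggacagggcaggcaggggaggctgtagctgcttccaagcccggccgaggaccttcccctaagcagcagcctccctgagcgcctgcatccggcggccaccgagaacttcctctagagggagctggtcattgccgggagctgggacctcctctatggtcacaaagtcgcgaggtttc

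*Bax* is a known target of p53 in other cells. The p53 half-site matched 1 of the 15 promoter windows searched, which belong to 9 members, against 8.36% of all 32851 windows. Windows on 1 chromosome were left out for the members but kept among all windows, so not every member was searched. The gamma-activated site TTCNNNGAA was searched on both strands and matched 0 of the 15 windows, against 8.3% of all windows. The core of the interferon-stimulated response element, searched in the same way, matched 0 of 15 against 3.44%. These counts describe letters in a short window only.

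**Figure D1:**
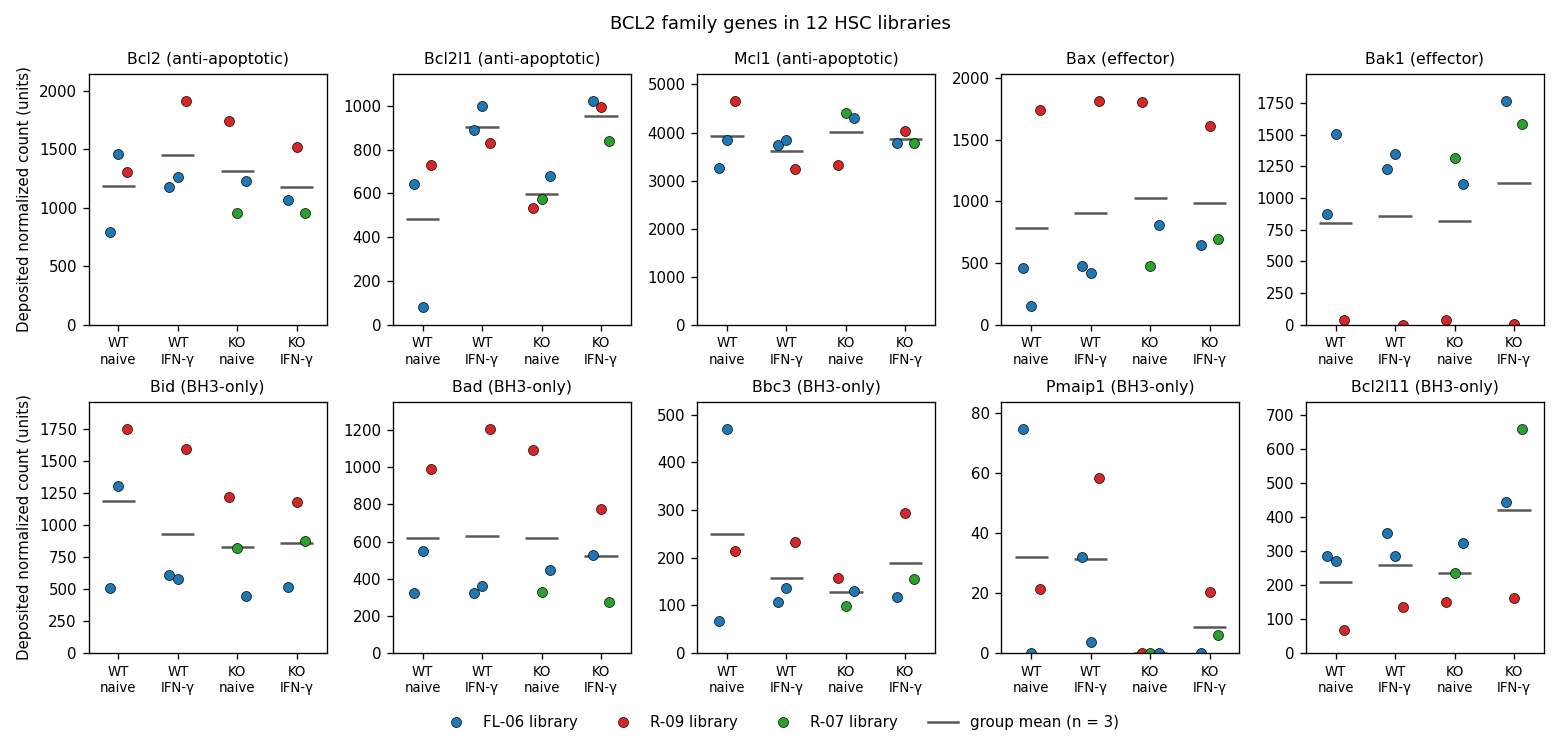
Deposited normalized counts (units, linear axes that start at 0) of the 10 BCL2 family genes in the 12 HSC libraries, by group. Points are libraries coloured by code series and bars are group means (n = 3). In *Bcl2l1* the 6 treated libraries lie above the 6 naive ones, while in *Bax* and *Bak1* the R-09 libraries lie apart from the rest of each group.

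*Bcl2l1* encodes BCL-XL, an anti-apoptotic protein that megakaryocytes, platelets and maturing red cells depend on. It stood at 642.5, 79.81 and 727.6 units in WT naive and at 887.2, 999 and 828.9 units in WT IFN-γ libraries. In KO it stood at 533.3, 573.8 and 677.8 units in naive and at 1024, 995.1 and 838.1 units in treated libraries. All 6 treated libraries, at 828.9 to 1024 units, were thus above all 6 naive libraries, at 79.81 to 727.6 units, and the groups did not overlap in either genotype. The mean of the treated libraries was 1.722 times that of the naive ones.

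That separation was seen in 13 of the 10816 tested genes (0.12%), and it was looked for in *Bcl2l1* after its values had been seen. How many genes a random order of the libraries would separate in this way was not tested, so the small share is no measure of support. The other 12 were *C4b*, *Ciita*, *H2-Eb1*, *Irf7*, *Isg15*, *Mcm2*, *Muc13*, *Oasl2*, *Phf11d*, *Poldip3*, *Slc22a3* and *Tap1*, among them known interferon-induced genes such as *Irf7*, *Isg15*, *Oasl2* and *Tap1*. In the opposite direction, 2 genes (0.0185%) had all treated libraries below all naive ones, and neither was a family member. Within WT alone the 3 treated libraries lay above the 3 naive ones in 2.1% of genes, and within KO alone in 1.22%.

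The size of the *Bcl2l1* difference depended on 1 library. In the limma model, adjusted for the code series, the mean of the WT and KO effects of IFN-γ was 1.05 on the log2 scale (SE 0.45, 95% interval 0.05 to 2.05), which did not pass the threshold over all genes (adjusted p = 0.7951). Without WT naive 2, where *Bcl2l1* was at 79.81 units, the effect was 0.53 with an SE of 0.14 (limma adjusted p = 0.2476). The averaged effect was above 0 in all 23 alternative settings, between 0.53 and 1.36, and passed the threshold in 0 of them.

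Within the single combinations of genotype and code series, *Bcl2l1* was higher after IFN-γ in all 5. The difference in WT was 2.05 in FL-06, or 0.55 without WT naive 2, and it was 0.19 between the R-09 libraries. The KO differences were 0.59 for FL-06, 0.90 for R-09 and 0.55 for R-07. Of all genes tested, 4.52% were higher in all 5 combinations. The effects in WT (1.43, SE 0.64) and in KO (0.68, SE 0.64) were compared by the interaction, which did not pass the threshold, with an interval for KO minus WT of −2.75 to 1.251 (limma adjusted p = 0.9331). In bulk RNA, more cells of a type that expresses a gene and more RNA of it per cell cannot be told apart. Marker sums of other cell types varied between naive and treated libraries too, but 0 markers of any list passed the limma threshold for IFN-γ. In WT the 6 megakaryocyte markers summed to 5193 and 5694 units in naive and 8021 and 8089 units in treated FL-06 libraries, and to 26240 and 28160 units in R-09. All 6 had a limma effect above 0 in WT (median 0.87), and 0 passed the threshold. Of these, *Gp9* was listed at 0 in WT naive 2, and *Ppbp* in WT naive 1 and WT naive 2. In KO the naive and treated sums were 6880 and 6325 units in FL-06, 26600 and 28080 units in R-09 and 8024 and 7247 units in R-07, with 2 of 6 effects above 0 (median −0.12). The 12 neutrophil markers had 3 averaged effects above 0 (median −0.63, 0 past the threshold). Their sums were 15120 and 15130 units in naive and 11900 and 12510 units in treated WT libraries of FL-06, and they were lower after IFN-γ in all 5 combinations. The 8 erythroid markers, 5 of them tested, had a median effect of 0.20 in WT and −0.61 in KO, with 0 past the threshold. For the 6 tested monocyte and macrophage markers the medians were 1.08 in WT and −0.54 in KO. They were 1.14 and 0.60 for the 3 tested T and NK cell markers. The 2 tested B and plasma cell markers had 1.27 and −0.02, and the 4 tested endothelium and stroma markers −0.355 and −0.74. The part of these cells in the *Bcl2l1* values was not tested.

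*Bcl2* encodes the founding anti-apoptotic member. It stood at 792, 1461 and 1305 units in WT naive and at 1173, 1266 and 1916 units in WT IFN-γ libraries. The KO values were 1745, 957.9 and 1231 units in naive and 1064, 1519 and 957.6 units in treated libraries. Naive and treated values overlapped in both genotypes, and the highest value of each treated group and of KO naive came from R-09. The averaged IFN-γ effect was 0.08 (SE 0.15, 95% interval −0.25 to 0.42, limma adjusted p = 0.9003).

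*Mcl1* encodes a short-lived anti-apoptotic protein and varied least of the members. It stood at 3264, 3847 and 4666 units in WT naive and at 3749, 3854 and 3233 units in WT IFN-γ libraries. KO libraries had 3325, 4402 and 4304 units in naive and 3785, 4025 and 3775 units in treated libraries. Its 12 values spanned 3233 to 4666 units, and no group or code series stood apart. The averaged IFN-γ effect was −0.08 with an SE of 0.11, and the 95% interval of −0.32 to 0.17 bounds it (limma adjusted p = 0.8709).

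Among the effectors, neither passed the test for IFN-γ. *Bax* stood at 464.5, 152.9 and 1742 units in WT naive and at 479.9, 418.5 and 1818 units in WT IFN-γ libraries. The KO libraries held 1805, 477.1 and 808.5 units in naive and 643.3, 1611 and 696 units in treated libraries. In each group the highest value was that of the R-09 library, at 1611 units or more, while the other 8 libraries reached 808.5 units at most. The averaged IFN-γ effect on *Bax* was 0.27 (SE 0.30, limma adjusted p = 0.8388), and −0.02 without WT naive 2.

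*Bak1*, the other effector, stood at 873.6, 1504 and 38.68 units in WT naive and at 1231, 1347 and 0 units in WT IFN-γ libraries. Its KO values were 35.82, 1318 and 1108 units in naive and 1770, 8.209 and 1582 units in treated libraries. The R-09 library was the low one in every group, and WT IFN-γ 3 was listed at 0. Outside R-09 the differences within the combinations were 0.17 in WT FL-06, 0.68 in KO FL-06 and 0.26 in KO R-07. The negative averaged IFN-γ effect of −1.01 (SE 0.68, limma adjusted p = 0.7989) thus rested on the R-09 pairs, which had −5.31 in WT and −2 in KO at values near 0.

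**Figure D2:**
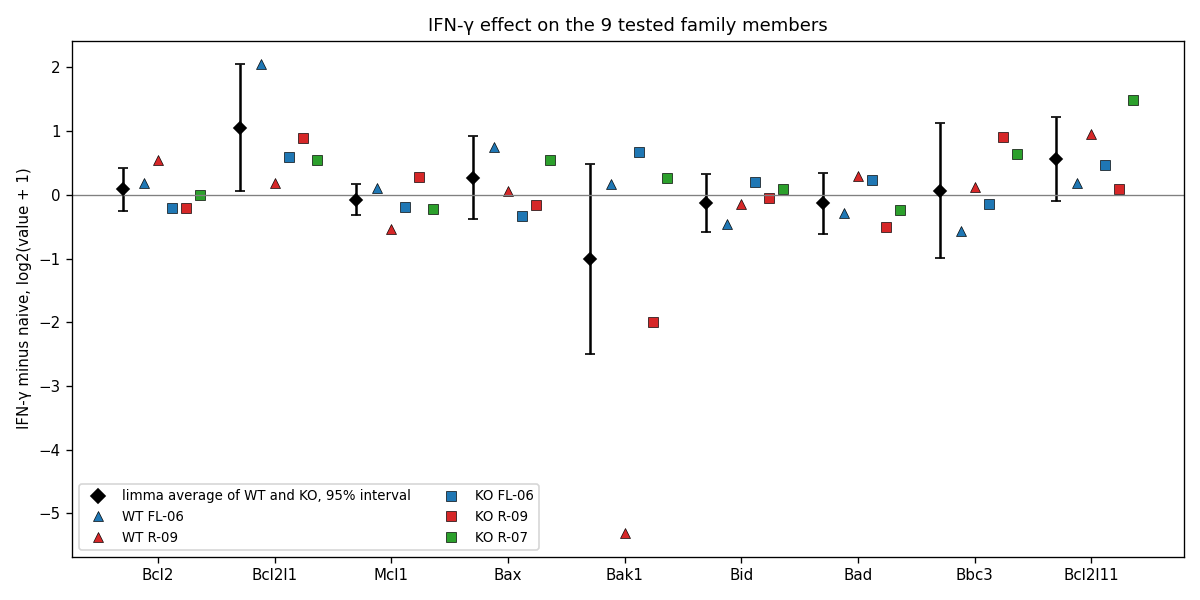
IFN-γ minus naive differences on the log2(value + 1) scale for the 9 tested members. Diamonds are limma effects averaged over the genotypes with 95% intervals, triangles and squares the differences within each genotype and code series (1 to 2 libraries a side). *Bcl2l1* and *Bcl2l11* are above 0 in all 5 combinations, and the 95% interval of *Bak1* is the widest.

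The BH3-only genes carry death signals of different kinds. *Bcl2l11* encodes BIM, which limits blood cell survival when cytokines are withdrawn. It stood at 285.3, 271 and 69.02 units in WT naive and at 353.6, 285.1 and 134.1 units in WT IFN-γ libraries. In KO libraries it lay at 150.7, 233.8 and 322.2 units in naive and at 444.1, 160.7 and 658.5 units in treated libraries. Naive and treated values overlapped in both genotypes, and the R-09 library was the lowest of every group.

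Read within code series, *Bcl2l11* was the other member that was higher after IFN-γ in all 5 combinations, so that 2 of the 9 tested members did this, against 4.52% of all genes. No tested member was lower in all 5, against 2.98% of all genes. The differences were 0.19 in WT FL-06, 0.95 in WT R-09, 0.46 in KO FL-06, 0.09 in KO R-09 and 1.49 in KO R-07. In WT FL-06 the treated 285.1 units of WT IFN-γ 2 and the naive 285.3 units of WT naive 1 overlapped. The averaged effect was 0.56 (SE 0.30, 95% interval −0.09 to 1.21) and did not pass the threshold (limma adjusted p = 0.7964).

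*Bid* encodes a BH3-only protein that caspase-8 cleaves and activates, linking death receptors to mitochondria. It stood at 509.8, 1303 and 1751 units in WT naive and at 608.7, 576 and 1592 units in WT IFN-γ libraries. Among KO libraries the values were 1216, 821.6 and 448.8 units in naive and 517.8, 1181 and 875.5 units in treated libraries. Naive and treated values overlapped in both genotypes. The averaged IFN-γ effect was −0.13 (SE 0.21, limma adjusted p = 0.8803), and it was 0.07 without WT naive 2.

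*Bad* encodes a BH3-only protein that survival kinases keep inactive by phosphorylation. It stood at 320.6, 548.6 and 989.2 units in WT naive and at 322.9, 362.8 and 1208 units in WT IFN-γ libraries. KO cells had 1093, 326.1 and 445.5 units in naive and 525.3, 773.6 and 274.7 units in treated libraries. The R-09 library was the highest of every group. The averaged IFN-γ effect was −0.13 (SE 0.22, limma adjusted p = 0.8875).

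*Bbc3* encodes PUMA, a p53-induced BH3-only protein on which the death of irradiated blood stem cells depends in mice. It stood at 67.97, 470.8 and 213.4 units in WT naive and at 107.3, 135.7 and 232.5 units in WT IFN-γ libraries. In the KO groups it was at 156.5, 99.41 and 130.3 units in naive and at 117.5, 294.6 and 155.2 units in treated libraries. The highest and the lowest of the 12 values were both WT naive libraries of FL-06. The averaged IFN-γ effect was 0.06 with a wide 95% interval of −0.998 to 1.126 (limma adjusted p = 0.9778), and 0.48 without WT naive 2.

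*Pmaip1* encodes NOXA, a BH3-only protein that binds MCL1. It stood at 74.68, 0 and 21.25 units in WT naive and at 32.09, 3.675 and 58.27 units in WT IFN-γ libraries. In KO it was listed at 0 in all 3 naive libraries and stood at 0, 20.48 and 5.928 units in treated libraries. All values were below the minimum of 100 units. Of the 5 libraries listed at 0, 4 were KO. With the filter left out, the KO minus WT difference in naive HSCs was −3.999 on the log2(value + 1) scale with an SE of 1.803, and it did not pass the threshold (limma adjusted p = 0.7921).

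Counted over the family, 0 of the 9 tested members passed the limma threshold for IFN-γ in WT, where 0.00925% of all tested genes did (1 gene). The number was also 0 in KO, where 0% of genes passed, and 0 in the average, where 0.0647% passed (7 genes, all higher). At an unadjusted p below 0.05, *Bcl2l1* was the only member in WT (against 7.43% of all genes) and in the average (against 6.06%), and no member was in KO (against 2.94%). The median effect over the 9 members was −0.10 in WT and 0.02 in KO, beside medians of 0.11 and 0.01 over all genes tested. With so few calls among all genes, an absent call says little about 1 member, and the intervals above carry the information.

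Genotype made no member pass either. In naive and in treated HSCs, and in the interaction, 0 of 9 members and 0% of all genes passed the limma threshold. *Bid* had the lowest p and was the only member with an unadjusted p below 0.05, with a KO minus WT difference of −0.72 in naive HSCs (SE 0.31, 95% interval −1.41 to −0.04, limma adjusted p = 0.7074), where 6.49% of all genes had an unadjusted p below 0.05. *Bid* was at 1303 units in WT naive 2, and its difference ranged from −1.03 to −0.36 over the alternatives, with 0 of 23 past the threshold. No member had an unadjusted p below 0.05 in treated HSCs (2.09% of all genes did) or in the interaction (3.39%). *Mcl1* had the narrowest interval, with a KO minus WT difference of 0.01 in naive HSCs (95% interval −0.36 to 0.38).

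The libraries were also compared by code series. Of the 9 tested members, 6 passed the limma threshold between R-09 and FL-06, 4 of them higher and 2 lower, but so did 68% of all genes tested (35.6% higher and 32.3% lower). The count is therefore near the background and is no result about the family. By values alone, 4 members had R-09 libraries that did not overlap with the other 8, *Bax* and *Bad* above (29.3% of all genes) and *Bak1* and *Bcl2l11* below (26% of all genes), against 55.3% in either direction. The series cannot be told apart from whatever else changed with it, including the marker sums given above, whose part in these differences was not tested.

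*Bak1* had the extreme difference of the family. It averaged 20.68 ± 19.46 units in R-09 (SD, n = 4) and 1342 ± 281.4 units in the other libraries (SD, n = 8), a ratio of 64.88 between the means. Its limma difference between R-09 and FL-06 was −7.02 (SE 0.77, adjusted p = 9.297e-06), and only 60 of the 10816 tested genes (0.555%) had a lower one. Of those 60, 31 were histone genes and 8 were structured RNA genes. *Bak1* shares 18.2% of its exonic bases with *Ggnbp1* on the opposite strand in the GENCODE annotation, and *Ggnbp1* lay between 0 and 49.81 units. Such an overlap is not particular to *Bak1*. *Bad* shares a larger part with *Gpr137* on the opposite strand, and *Bax* a smaller part with *Gm45808* on the same strand. *Bid* shares a similar part with the opposite-strand *Bcl2l13*, which was above the highest *Ggnbp1* value in every library. How the authors' counting handled strand and overlaps is not given in the sources used here.

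*Bax* moved the other way. It averaged 1744 ± 94.86 units in R-09 (SD, n = 4) and 517.6 ± 200.3 units elsewhere (SD, n = 8), and it rose by 1.88 from FL-06 to R-09 on the log2 scale (SE 0.34, limma adjusted p = 0.0004454). The balance of the 2 effectors inside a library differed accordingly. Without a pseudocount, the log2 ratio of *Bax* to *Bak1* units was 5.49 to 7.62 in the 3 R-09 libraries with *Bak1* above 0 and −3.30 to −0.45 in the other 8. No ratio is given for WT IFN-γ 3, where *Bak1* was listed at 0.

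**Figure D3:**
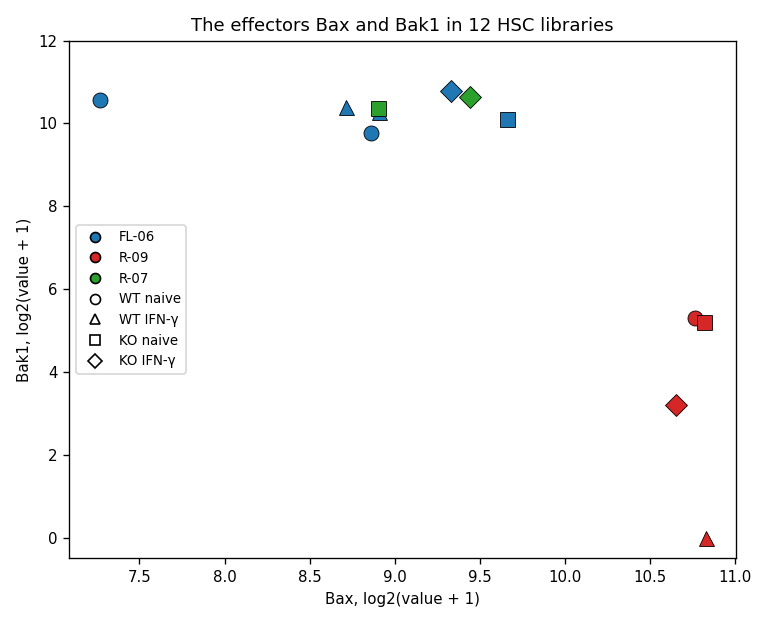
*Bax* against *Bak1*, each as log2(value + 1), in the 12 libraries, with colour for the code series and shape for the group. The 4 R-09 libraries lie at high *Bax* and low *Bak1* in every group, apart from the other 8.

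The remaining members differed less between the series. *Bid* was higher in R-09 by 1.28 (SE 0.23, limma adjusted p = 0.0005132) and *Bad* by 1.27 (SE 0.25, adjusted p = 0.0008151). *Bcl2l11* was lower by 1.47, at −1.47 with an SE of 0.34 (limma adjusted p = 0.00239), averaging 128.6 ± 41.25 units in R-09 (SD, n = 4) and 356.7 ± 137.6 units elsewhere (SD, n = 8). *Bcl2* was higher by 0.48 (SE 0.17, limma adjusted p = 0.027), a call that ended with TMM scaling (0.34, adjusted p = 0.1057), without the trend (adjusted p = 0.05027) and in 6 of the 12 fits without 1 library. These were the fits without WT IFN-γ 1, WT IFN-γ 3, KO naive 1, KO naive 3, KO IFN-γ 1 or KO IFN-γ 2 (0.42 to 0.50, adjusted p = 0.0527 to 0.115). *Bcl2l1* (0.34, SE 0.52), *Mcl1* (−0.01, SE 0.13) and *Bbc3* (0.68, SE 0.55) did not pass. *Bbc3* did pass without WT naive 2, at 1.03 (limma adjusted p = 0.02181), and with library quality weights, at 0.95 (adjusted p = 0.04978). Between R-07 and FL-06, 0 of 9 members passed and 3.57% of all genes did, with *Bid* at 0.80 (SE 0.33, limma adjusted p = 0.2733). *Bid* passed there without WT naive 2, at 0.89 (adjusted p = 0.01804).

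Ratios of 10 pairs of members inside a library were read on the log2(value + 1) scale, and 7 of them did not overlap between R-09 and the other libraries, while 3 did. The pairs share genes, and 55.3% of single genes already did not overlap, so this count is no result about the family. The log2 ratio of *Bcl2* to *Bax* was −0.42 to 0.08 in R-09 and 0.46 to 3.25 elsewhere. For *Mcl1* to *Bax* it was 0.83 to 1.42 against 2.41 to 4.64, and for *Bcl2l11* to *Bcl2* it was −4.22 to −3.23 against −2.43 to −0.54. The pairs that overlapped were *Bcl2l1* to *Bax*, *Bcl2l1* to *Bbc3* and *Mcl1* to *Bbc3*, the last with 3.77 to 4.44 in R-09 against 3.03 to 5.56 elsewhere. All these ratios compare units that are not corrected for length, so their absolute size has no meaning, only their difference between libraries.

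The difference between R-09 and FL-06 depended on transcript length across all genes, so each member was set beside genes of like length. Over the 10736 tested genes with an annotated transcript (99.3%), the Spearman correlation of the difference with the length of the longest transcript was −0.55, a description across genes, which are not independent. The median difference was 1.56 in the shortest and −2.46 in the longest of 10 equal bins. *Bax*, *Bid*, *Bad*, *Bbc3*, *Mcl1* and *Bcl2l1* lay within the middle 50% of their bins. *Bcl2l11* lay just under it, with 22.4% of the genes of its bin lower. *Bcl2*, with a transcript of 7191 bases, was 2.95 above the median of its bin, where 93.8% of the genes were lower. *Bak1*, with 2387 bases, was 8.09 below the median of its bin, where 3 of 1072 genes (0.28%) were lower.

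**Figure D4:**
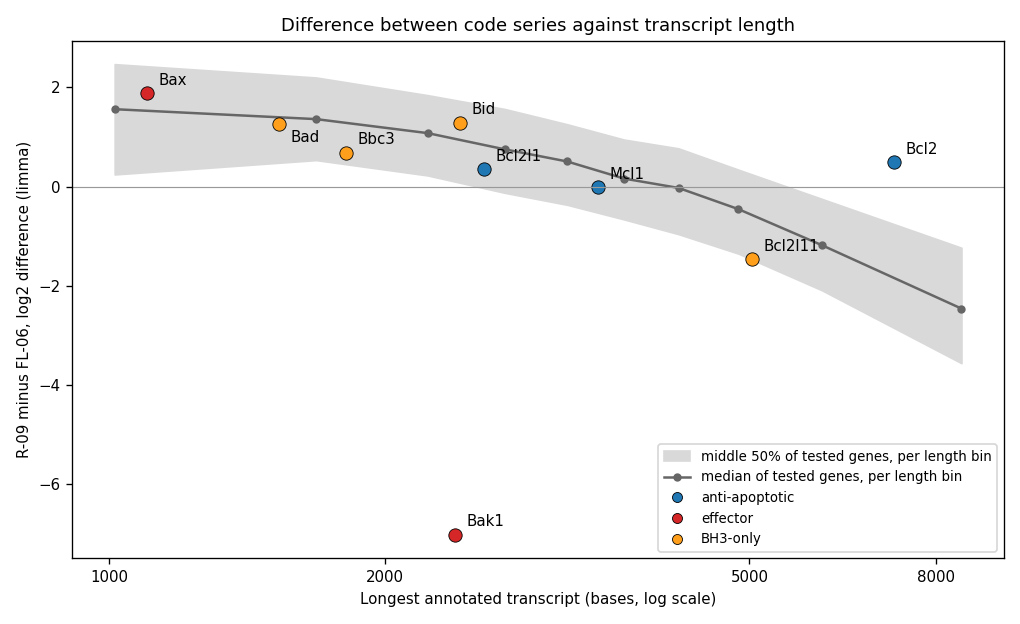
Limma log2 difference between R-09 and FL-06 against the longest annotated transcript (bases, log axis) for the 9 tested members. The line and band give the median and the middle 50% of tested genes in 10 length bins. *Bak1* lies 8.09 below and *Bcl2* 2.95 above the line, and the others lie nearer to it.

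The rest of the pathway was read from fixed lists. After IFN-γ, 0 genes passed the limma threshold in WT, KO or the average among 5 other tested BCL2 family genes, 12 apoptosome and caspase genes, 7 inhibitors of apoptosis, 9 p53 pathway genes and 12 regulators of the members. Their median effects in WT were 0.08, 0.07, −0.04, 0.03 and 0.09 in that order, beside 0.11 over all genes tested. In KO they were −0.14, 0.08, −0.10, 0.06 and −0.09, beside 0.01 over all genes. Of the 16 other family genes listed, 11 did not pass the filter. Among these, the 4 *Bcl2a1* copies, which are nearly identical and so uncertain, lay between 0 and 55.49 units.

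Between R-09 and FL-06 the lists followed no single direction. Of the 5 other family genes 2 were higher and 2 lower, among them *Bnip3*, a mitophagy receptor, at 1.58 (SE 0.27, limma adjusted p = 0.0003135), and *Bcl2l2*, which encodes the anti-apoptotic BCL-W, at −4.64 (SE 0.92, adjusted p = 0.0009097). The apoptosome and caspase list had 6 higher and 3 lower of 12, with a log2 difference of 0.64 for cytochrome c (*Cycs*). The inhibitors of apoptosis had 1 higher and 4 lower of 7. Their *Xiap*, which blocks caspases directly, was at 54.66 to 125.5 units in R-09 and at 1099 to 1362 units elsewhere, and the very long *Birc6* was at 62.57 to 169.3 units against 4619 to 7290 units. The p53 list had 2 higher and 4 lower of 9, with log2 differences of 0.93 for *Trp53* itself and −4.75 for its target *Zmat3*. The regulators had 3 higher and 7 lower of 12, with a log2 difference of −5.28 for *Huwe1*, a ubiquitin ligase that targets MCL1. These counts stand against the 68% of all genes called in this comparison. Unlike the members, the listed genes were not set beside genes of like length, and the part of transcript length in their differences was not tested.

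The genes whose pattern was most like that of each member were read from all tested genes. Over the 12 libraries, which share the series, the 2 genes with the highest Pearson correlation to *Bak1* were *Tatdn2* (0.994) and *Erf* (0.993), and those to *Bax* were *Procr* (0.984) and *Dcps* (0.981). The Spearman correlations with *Bak1* were lower, at 0.664 for *Tatdn2* and 0.825 for *Erf*, while both with *Bax* were 0.923. *Bcl2* was closely like *Elp2* (0.946), *Bid* most like *Plscr1* (0.974) and *Slc39a13* (0.968), and *Bad* most like *Ndufb9* (0.977) and *Etfa* (0.971). *Bcl2l11* was most like *Zfyve26* (0.925) and *Dazap1* (0.921), and *Bbc3* most like *Mrps35* (0.949) and *Ube2d2a* (0.943). For *Bbc3* the Spearman correlations were 0.951 with *Mrps35* and 0.804 with *Ube2d2a*. *Mcl1* had no close match, with *Stk40* at 0.795 and *Btg1* at 0.762. For *Bcl2l1* the correlations with *Myo7a* (0.972) and *Zfp61* (0.963) fell to 0.668 and 0.577 without WT naive 2, so they rested on that library.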

How the data were processed

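Bulk RNA-seq of 12 sorted HSC libraries was analysed from 1 deposited table. Its values are a normalized signal per gene that the authors made from read counts and deposited, and the submitters' processing notes name STAR and DESeq with no version. The build, the annotation and the strand handling were not given in the sources used here. Depth in reads is unknown. The values are not whole reads, so the planned count test did not apply and the limma fallback for normalized values was used. Of 24972 entries, 26 had names turned into dates and were dropped. The 12 library columns are the only per-sample columns, and 1 further table was not used.

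Values were taken as log2(value + 1), a scale that understates changes of low genes. Genes with at least 100 units in at least 3 libraries were fitted together, with terms for the 4 groups and the code series, in 1 linear model (limma 3.58.1 in R 4.3.3, trend, residual df 6, prior df 5.02). P-values are two-sided and adjusted by Benjamini-Hochberg over all 10816 genes, with a threshold of 0.05.

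The members, the gene lists and the tests were chosen with earlier results of these data known. All 10 members were named. From each pathway list up to 4 genes past the threshold were taken by adjusted p, and likeness was read from the 2 genes with the highest correlation. A few genes that these rules take are not reported here. The non-overlap of naive and treated libraries was counted after the values had been seen.

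Replicate numbers were checked as pairs. The deviations of same-numbered WT naive and WT IFN-γ libraries correlated at 0.548, 0.459 and 0.825, and there the numbers coincide with the code series. In KO the correlations were −0.693, −0.669 and 0.496. Same-numbered KO libraries come from different code series, so this check cannot tell whether the numbers pair mice.

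Alternatives were a pseudocount of 10, no filter or a minimum of 10 units, quantile or TMM scaling (trimmed mean of M-values, on the deposited values), no code series, a replicate block, library weights, FL-06 libraries alone, no R-09 libraries, no trend, and each library left out in turn.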

Additional observations from a re-analysis of the deposited data

Results flagged for a closer look

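Within the code series, the values of the 10 members were screened for a library far from the others in 20 gene-by-series groups (FL-06 with 6 libraries and R-09 with 4 libraries), of which chance alone marks about 1 in 20. Both hits were in WT naive 2 of FL-06. *Bid* stood there at 1303 units, with the nearest other FL-06 library at 608.7 units, a gap of 0.813 of the whole range. *Bbc3* stood there at 470.8 units, with the nearest other at 135.7 units, a gap of 0.832 of the range. Both gaps exceed Dixon's 95% critical value for 6 values. The same library held the lowest *Bcl2l1* and *Bax* values of all 12 and the coarse low values described above, whose part in these values was not tested.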

How the results depend on the processing

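The number of members past the threshold was 0 for IFN-γ in WT, in KO and in the average, for both genotype differences and for the interaction, under every alternative run. With a replicate block in place of the code series it was 0 in all 6 comparisons. Between R-07 and FL-06 it was 0, but 1 (*Bid*) with library quality weights, and 0 to 1 when 1 library was left out (1 without WT naive 2). Between R-09 and FL-06 it was 6, and 5 to 7 over the alternatives. Of 1602 alternative values of single members, 1460 kept direction and side of the threshold, 130 uncalled values changed sign, 8 lost and 4 gained a call, and 0 called values changed direction.

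Over all genes, the count for IFN-γ in WT was 1. It was 5 with a pseudocount of 10, 2 without the filter or without R-09, 4 with quantile scaling, 9 with library weights, and 0 with the replicate block, without the trend or with no term for the series. It ranged from 0 to 13 with 1 library left out (13 without WT naive 3). For the average it was 7, against 13, 7, 21, 29, 42 and 0 under those settings, 0 in FL-06 alone and 3 (without KO IFN-γ 1) to 22 (without WT naive 2) with 1 library left out. In KO it was 0, against 7 with quantile scaling, 7 with library weights and 0 to 7 with 1 library left out (7 without WT naive 2). Without R-09 it was 2 for genotype in treated HSCs and 1 for the interaction, against 0 each, and without WT naive 3 it was 2 for genotype in naive HSCs and 2 for the interaction. Between R-07 and FL-06 it was 386, against 838 with library weights, 237 without R-09, 6 without the trend and 2 (without KO naive 2) to 932 (without WT naive 2) with 1 library left out. TMM moved the median difference of all genes between R-09 and FL-06 from 0.233 to 0.085. The causes were not tested. Depth in reads is unknown, and WT naive 2 has coarse values, so low members (*Pmaip1*, *Bbc3*) are the least certain.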
